A study of Mus musculus with 34 samples.

Results

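The carnitine shuttle is described here through 7 genes measured in mouse liver: Slc22a5, Cpt1a, Cpt1b, Slc25a20, Cpt2, Crat and Crot. The members were every non-control array probe that carries 1 of these gene names, which gave 10 probes of 55681. All 7 genes were among the 16089 genes that could be tested, and all 10 probes were well above background on all 34 arrays. Long-chain fatty acids cannot cross the inner mitochondrial membrane as acyl-CoA. A carnitine palmitoyltransferase of the outer membrane passes the acyl group to carnitine, a translocase carries the acylcarnitine inward, and a second transferase rebuilds acyl-CoA in the matrix for beta-oxidation. PPARA is a nuclear receptor for fatty acids that switches on fatty acid oxidation genes in hepatocytes, and fenofibrate is a drug whose active form binds it.

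Each of the 34 arrays, an Agilent design read in a single colour, held liver RNA from 1 male C57Bl/6J mouse aged 14 weeks and killed at zeitgeber time 14 h. WT mice were wild type, KO mice lacked Ppara in the whole body, LKO mice lacked it in liver, and LWT mice were the liver wild-type controls of the LKO line. Fenofibrate was given by gavage at 100 mg/kg/day for 10 days, and vehicle mice received 3% gum arabic in water over the same time. The vehicle groups held 4 WT, 4 LWT, 4 LKO and 3 KO mice, and the fenofibrate groups held 4 WT, 5 LWT, 5 LKO and 5 KO mice. The labels name neither the Cre driver of the liver deletion nor the deleted part of Ppara. RNA came from whole liver, so fewer cells of a type and less RNA per cell cannot be told apart.

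Each level is a log2 intensity from which the 75th percentile of its array was subtracted, so a level of 0 equals that percentile, and levels may not be compared between genes. A change counts as called when the p from limma fell under 0.05 after Benjamini-Hochberg adjustment across 16089 genes. Errors of levels are SD over mice and errors of changes are SE. On single arrays, 50.6% to 63.2% of probes stood well above background. The lowest correlation between arrays of 1 group was 0.979, among the 3 KO vehicle mice, and 0.985 or above in the other groups. The main Ppara probe read 7.02 ± 0.20 in WT and 7.03 ± 0.23 in LWT vehicle mice (SD, n = 4 each), 6.11 ± 0.09 in LKO (n = 4) and 5.34 ± 0.27 in KO (n = 3). It was therefore lower in both knockouts but still read a signal in them. All 6 hepatocyte markers, Alb among them, were well above background on every array. With fenofibrate 1 of the 6 was called lower in WT and 1 in LWT, where 1815 and 1257 of all 16089 genes were. On vehicle 2 were called higher in KO than in WT, where 2234 of all genes were. On fenofibrate 2 were called higher in KO than in WT (3406 of all genes) and 1 in LKO than in LWT (2931). The part of these markers in the shuttle values was not tested.

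Fenofibrate raised most shuttle genes in both control lines, and in both knockouts almost no gene of the array, shuttle or other, was called. In WT liver 7 of 7 genes rose, against 9.99% of all genes tested, with a median log2 change of 1.27 where the median of all genes was 0. In LWT liver 6 of 7 rose, against 9.94% of all genes, with a median of 0.92. In LKO liver 0 of 7 were called, against 0% of all genes in either direction (limma, 927 genes had an unadjusted p under 0.05). In KO liver 0 of 7 were called, against 0.0124% of all genes (1903 had an unadjusted p under 0.05). In WT every fenofibrate mouse lay above every vehicle mouse for 7 of 7 genes, which 12.6% of all genes did, and in LWT for 6 of 7, against 10.7%.

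**Figure D1:**
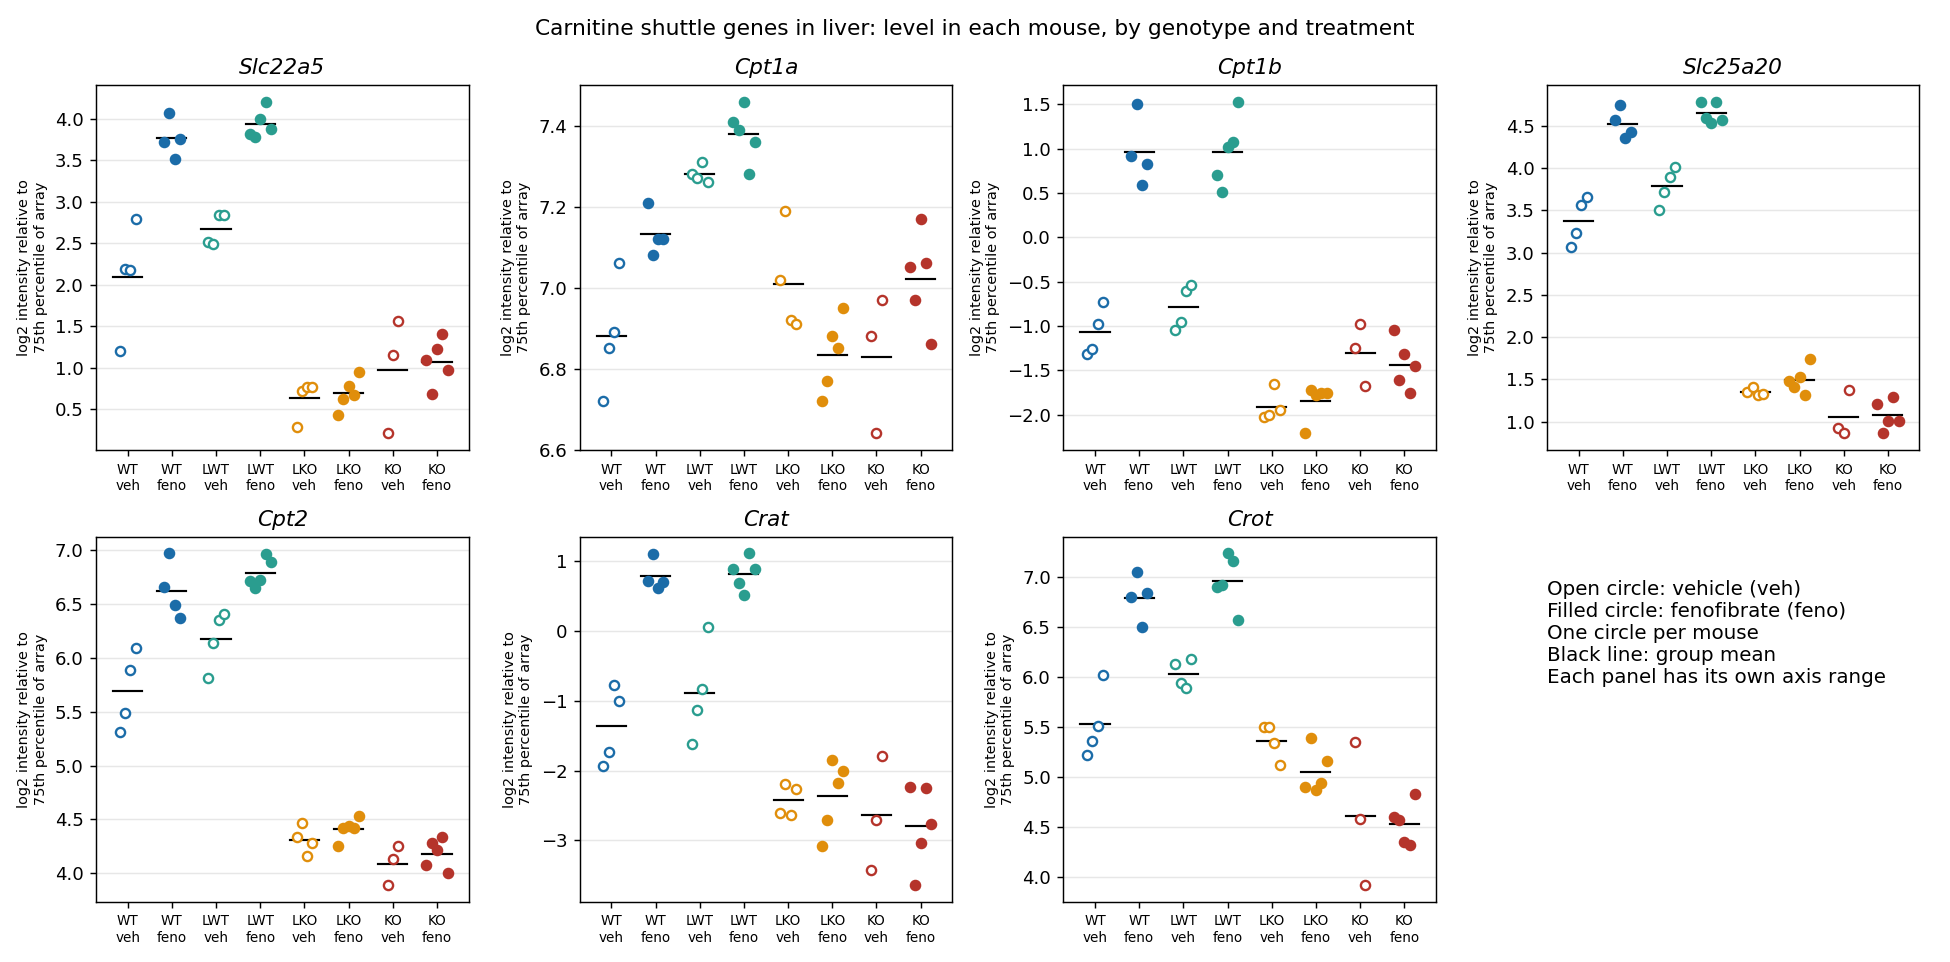
Level of each of the 7 genes in each mouse, as log2 intensity minus the 75th percentile of that array, in 8 groups of genotype and treatment (open circles vehicle, filled circles fenofibrate, black lines group means, own axis range per panel). Fenofibrate mice sit above vehicle mice of WT in all 7 panels, while both knockouts sit low in 6 of them. The Cpt1a panel spans 6.64 to 7.46.

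Slc22a5, also called OCTN2, is the sodium-dependent carnitine transporter of the plasma membrane and brings carnitine into the cell. Its probe lies at chr11:53678550-53678609 (mm9, minus strand). Vehicle mice read 1.2, 2.19, 2.18 and 2.79 in WT and 2.52, 2.49, 2.84 and 2.84 in LWT, and fenofibrate mice 3.72, 4.07, 3.52 and 3.76 in WT and 3.82, 3.78, 4.00, 4.21 and 3.88 in LWT. Neither control line had any overlap between treated and vehicle mice, although 1 WT vehicle mouse at 1.2 lay well under the other 3. The rise was 1.68 ± 0.24 in WT, or 3.20-fold, and 1.27 ± 0.23 in LWT, or 2.41-fold (limma adjusted p = 6.4e-06 and 0.000179). Knockout mice were low with or without the drug: LKO vehicle mice read 0.29, 0.72, 0.77 and 0.77 and LKO fenofibrate mice 0.43, 0.63, 0.78, 0.67 and 0.95. The KO vehicle mice spread from 0.21 to 1.56 and the KO fenofibrate mice from 0.68 to 1.41, and in both knockouts treated and untreated ranges overlapped.

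Cpt1a is the liver form of carnitine palmitoyltransferase 1, the outer-membrane enzyme that malonyl-CoA inhibits and that is held to set the pace of long-chain fatty acid oxidation. Its main probe, read from 10 spots per array, lies at chr19:3385374-3385433 (mm9, plus strand). Vehicle mice read 6.72, 6.85, 6.89 and 7.06 in WT and 7.28, 7.27, 7.31 and 7.26 in LWT. Fenofibrate mice read 7.21, 7.08, 7.12 and 7.12 in WT and 7.41, 7.39, 7.46, 7.28 and 7.36 in LWT. The WT groups did not overlap by a narrow margin, the LWT groups did, and all LWT mice lay above all WT mice. The change was 0.25 ± 0.08 in WT (95% interval 0.09 to 0.42, 1.19-fold, limma adjusted p = 0.0228) and 0.10 ± 0.08 in LWT (−0.05 to 0.26, adjusted p = 0.406). In LKO Cpt1a changed by −0.18 ± 0.08 (95% interval −0.33 to −0.02, limma adjusted p = 0.83), which was not called. In KO it changed by 0.19 ± 0.08 (0.02 to 0.36, adjusted p = 0.362), also not called. The WT call was lost in 5 of 12 alternative settings, with adjusted p up to 0.17, and when WT vehicle mouse 1 or 2 or WT fenofibrate mouse 1 was left out (0.106, 0.0549 and 0.0781). A further probe of the gene gave 0.26 ± 0.12 in WT, which was not called in a fit of every probe (limma adjusted p = 0.148). For the other 6 genes the lowest 95% interval in WT was that of Cpt2, 0.63 to 1.23, which lies above that of Cpt1a; no test between genes was made.

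Cpt1b is the muscle form of the same outer-membrane enzyme and is best known from heart, skeletal muscle and brown fat. Its main probe lies at chr15:89247106-89247165 (mm9, minus strand). Vehicle mice read −1.32, −1.26, −0.98 and −0.73 in WT and −1.05, −0.95, −0.61 and −0.54 in LWT, while fenofibrate mice read 0.92, 1.5, 0.59 and 0.83 in WT and 0.70, 0.51, 1.02, 1.07 and 1.53 in LWT. Every treated control mouse stood above the 75th percentile and every untreated control mouse below it. The rise was 2.03 ± 0.20 in WT, or 4.10-fold (limma adjusted p = 1.51e-08), and 1.75 ± 0.19 in LWT, or 3.38-fold (7.22e-08). LKO mice on vehicle read −2.03, −2, −1.65 and −1.95 and on fenofibrate −2.21, −1.72, −1.78, −1.75 and −1.75, and KO mice read −1.25, −0.98 and −1.67 on vehicle and −1.05, −1.61, −1.32, −1.75 and −1.45 on fenofibrate. The further Cpt1b probe, at chr15:89246836-89246895, gave rises of 2.35 ± 0.24 in WT and 2.06 ± 0.23 in LWT.

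The annotation in the scanner files assigns both Cpt1b probes to a noncoding transcript as well, which RefSeq names Gm44502 with the synonym Chkb-Cpt1b and which spans Cpt1b and its neighbour Chkb. Signal of Cpt1b and of that transcript cannot be told apart here, so the Cpt1b values are uncertain in that sense. Markers of other tissues that express Cpt1b were also examined. Of 6 skeletal muscle markers, none was above background everywhere. Acta1 was above it on 11 of 34 arrays, Tnnt3 on 8, Mylpf on 5, Ckm on 2, and Myh4 and Mb on 1 each. The log2 of their summed level ranged from −2.94 to −2.10 in WT vehicle and from −2.63 to −2.28 in WT fenofibrate mice. In LWT it ranged from −2.65 to −2.24 on vehicle and from −2.90 to −2.03 on fenofibrate. Of 4 heart muscle markers, Actc1 was above background on 0 arrays and Myh6 on 34, and the summed level ranged from −1.68 to −1.38 in WT vehicle and −2.13 to −2.03 in WT fenofibrate mice. In LWT this level ranged from −1.86 to −1.47 on vehicle and from −2.48 to −1.51 on fenofibrate. Of 4 adipocyte markers 2 could be tested. With the drug 1 was called higher in WT and 1 in LWT, against 9.99% and 9.94% of all genes. The summed level of the 4 adipocyte markers ran from −2.15 to −1.56 in WT vehicle, 1.73 to 3.88 in WT fenofibrate, −1.30 to 0.34 in LWT vehicle and 0.70 to 2.91 in LWT fenofibrate mice. In the knockouts it ran from −3.18 to −0.76 in LKO vehicle, −3.42 to −2.33 in LKO fenofibrate, −3.54 to −2.50 in KO vehicle and −3.17 to 0.99 in KO fenofibrate mice. Lep was above background on 0 arrays, Adipoq on 7, and Cfd and Retn on 21 each. Cfd reached a level of 3.86 on its own, where the highest values of Retn and Adipoq were −2.19 and −2.66. The brown fat markers Ucp1 and Cidea were above background on 1 and 19 arrays, with a summed level of −4.12 to −2.66 in WT vehicle and −0.69 to 0.67 in WT fenofibrate mice; LWT ran from −4.49 to −3.02 and −3.19 to 0.31, LKO from −5.44 to −4.18 and −5.43 to −4.23, and KO from −3.91 to −1.94 and −4.10 to −3.31, vehicle first. The part of these cells in the Cpt1b values was not tested.

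Slc25a20 encodes the carnitine-acylcarnitine translocase, the carrier of the inner mitochondrial membrane. Its probe lies at chr9:108585399-108585458 (mm9, plus strand) and reads without a stop codon in 1 frame; it is shown because the largest shuttle decrease of untreated knockouts rests on it.
Slc25a20 probe: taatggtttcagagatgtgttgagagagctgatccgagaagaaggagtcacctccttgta
WT mice read 3.07, 3.23, 3.56 and 3.66 on vehicle and 4.57, 4.75, 4.36 and 4.43 on fenofibrate, and LWT mice 3.51, 3.72, 3.90 and 4.02 on vehicle and 4.79, 4.59, 4.54, 4.79 and 4.57 on fenofibrate. Treated and untreated mice did not overlap in either line. The rise was 1.15 ± 0.13 in WT, or 2.21-fold, and 0.87 ± 0.13 in LWT, or 1.83-fold (limma adjusted p = 1.9e-07 and 7.49e-06). LKO mice read 1.35, 1.41, 1.32 and 1.33 on vehicle and 1.48, 1.41, 1.53, 1.32 and 1.74 on fenofibrate. KO mice read 0.93, 0.86 and 1.38 on vehicle and 1.21, 0.86, 1.01, 1.29 and 1.01 on fenofibrate. All 17 knockout mice lay below all 17 control mice.

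Cpt2 is carnitine palmitoyltransferase 2, the enzyme on the matrix side of the inner membrane that rebuilds acyl-CoA. Its main probe lies at chr4:107576591-107576650 (mm9, minus strand). The main probe read 5.31, 5.49, 5.89 and 6.09 in WT vehicle and 6.66, 6.97, 6.49 and 6.37 in WT fenofibrate mice. LWT mice read 5.81, 6.14, 6.35 and 6.41 on vehicle and 6.71, 6.65, 6.72, 6.96 and 6.89 on fenofibrate. Treated mice lay above untreated mice in both lines, by 0.93 ± 0.15 in WT, or 1.90-fold, and 0.61 ± 0.14 in LWT, or 1.52-fold (limma adjusted p = 2.13e-05 and 0.00214). Knockout mice ranged from 3.89 to 4.53 whatever the treatment, under the lowest control mouse at 5.31.

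Crat, carnitine acetyltransferase, moves acetyl and other short acyl groups between CoA and carnitine in mitochondria and peroxisomes. Its probe lies at chr2:30265479-30265538 (mm9, minus strand) and reads without a stop codon in 2 frames; it is shown because the largest drug change in WT among the main probes of the 7 genes rests on this 1 probe (the further Cpt1b probe gave 2.35).
Crat probe: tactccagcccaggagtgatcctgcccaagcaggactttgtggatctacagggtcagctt
WT mice read −1.94, −1.73, −0.77 and −1 on vehicle and 0.71, 1.1, 0.62 and 0.70 on fenofibrate. LWT mice read −1.62, −1.14, −0.83 and 0.06 on vehicle and 0.88, 0.69, 0.52, 1.11 and 0.88 on fenofibrate. Vehicle mice were widely scattered, treated mice were close together, and the groups did not overlap. The rise was 2.14 ± 0.35 in WT, or 4.42-fold, and 1.70 ± 0.33 in LWT, or 3.24-fold (limma adjusted p = 3.23e-05 and 0.000382). LKO mice ranged from −2.64 to −2.19 on vehicle and −3.08 to −1.85 on fenofibrate, and KO mice from −3.42 to −1.79 and −3.64 to −2.24.

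Crot, carnitine octanoyltransferase, is the peroxisomal enzyme that turns medium-chain acyl-CoA made by peroxisomal beta-oxidation into acylcarnitine for export to mitochondria. Its probe lies at chr5:8966430-8966489 (mm9, minus strand). WT mice read 5.22, 5.36, 5.51 and 6.02 on vehicle and 6.80, 7.05, 6.50 and 6.84 on fenofibrate. LWT mice read 6.13, 5.94, 5.89 and 6.18 on vehicle and 6.90, 6.92, 7.24, 7.16 and 6.57 on fenofibrate. Again no treated mouse reached down to an untreated one, and the rise was 1.27 ± 0.20 in WT, or 2.41-fold, and 0.92 ± 0.19 in LWT, or 1.89-fold (limma adjusted p = 3.48e-05 and 0.00104). In LKO the change was −0.31 ± 0.19 (95% interval −0.71 to 0.08), with vehicle mice at 5.50, 5.50, 5.34 and 5.12 and fenofibrate mice at 4.90, 5.39, 4.87, 4.94 and 5.16. The LKO ranges overlapped, and the change was not called (adjusted p = 0.932). KO vehicle mice were spread over 3.92, 4.58 and 5.35.

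**Figure D2:**
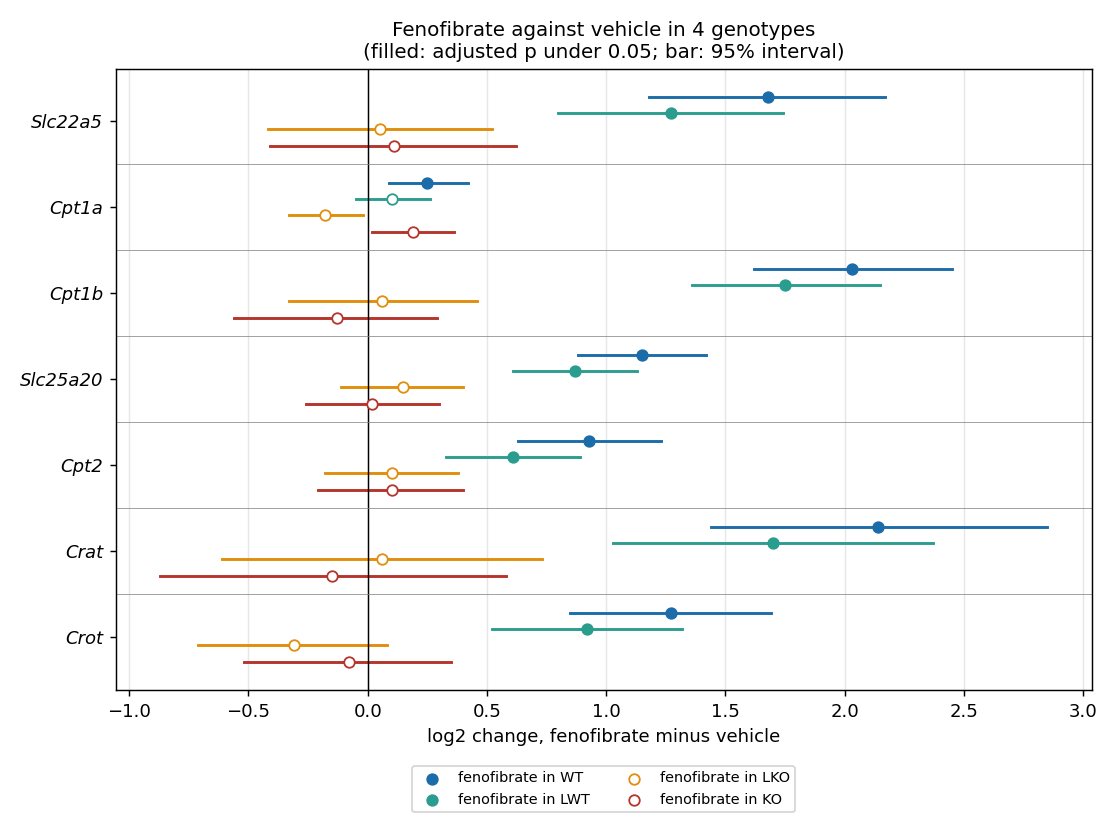
Log2 change of each of the 7 genes with fenofibrate in WT, LWT, LKO and KO liver, with the 95% interval as a bar and filled circles for an adjusted p under 0.05. In WT and LWT the values of 6 genes lie between 0.61 and 2.14, while in LKO and KO all 7 lie between −0.31 and 0.19.

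Whether the drug change itself differed between genotypes was tested as an interaction. The change was larger in LWT than in LKO for 5 of 7 genes, against 3.75% of all genes: Cpt1b by 1.69 ± 0.27, Crat by 1.64 ± 0.46, Crot by 1.24 ± 0.27, Slc22a5 by 1.22 ± 0.32 and Slc25a20 by 0.72 ± 0.18 (limma adjusted p from 0.00013 to 0.0284). Cpt2 differed by 0.51 ± 0.19 (95% interval 0.11 to 0.91, adjusted p = 0.12) and Cpt1a by 0.28 ± 0.11 (0.06 to 0.50, adjusted p = 0.123), neither of them called. The Crat call was lost without any of 6 mice: LKO fenofibrate 1 or 2, LKO vehicle 2, LWT fenofibrate 4, or LWT vehicle 1 or 2 (adjusted p 0.0513 to 0.0763). That of Slc25a20 was lost with the authors' value table (0.185).

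The change was larger in WT than in KO for 6 of 7 genes, against 5.59% of all genes. The differences were 2.29 ± 0.50 for Crat, 2.17 ± 0.29 for Cpt1b, 1.57 ± 0.35 for Slc22a5, 1.35 ± 0.29 for Crot, 1.13 ± 0.19 for Slc25a20 and 0.83 ± 0.21 for Cpt2 (limma adjusted p from 8.84e-06 to 0.00821). With the replicate number as a block 5 of the 6 calls were lost: Slc25a20 (adjusted p = 0.0731), Crot (0.0839), Crat (0.0902), Slc22a5 (0.112) and Cpt2 (0.221), their differences lying between 0.82 and 2.48. The Cpt2 call was also lost with the authors' value table (0.067) and in a fit of only the groups compared (0.056), and that of Slc25a20 with the authors' table (0.0526). Without slide 1 the Crot difference was 0.90 and still called. For Cpt1a the difference was 0.06 ± 0.12 (95% interval −0.18 to 0.30, adjusted p = 0.794). Between the control lines the drug change differed for 0 of 7 genes, against 0% of all genes (limma, 683 had an unadjusted p under 0.05). These WT minus LWT differences ran from 0.15 for Cpt1a to 0.45 for Crat (95% interval −0.53 to 1.42).

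Without the drug, most of the shuttle was lower in mice that lack Ppara. These comparisons share their WT and LWT vehicle mice with the drug comparisons above, so the values stand side by side and were not set against each other. In LKO against LWT vehicle mice 7 of 7 genes were lower, against 4.27% of all genes, with a median log2 change of −1.54, and every LKO mouse lay below every LWT mouse for 7 of 7, against 7.94% of all genes. In KO against WT vehicle mice 5 of 7 were lower, against 16.1% of all genes, with a median of −1.12, and the groups were fully apart for 2 of 7, against 14.9%. Slc25a20 stood lowest in both knockouts. It was at 18.5% of LWT in LKO (−2.44 ± 0.13, limma adjusted p = 8.47e-14) and at 20% of WT in KO (−2.32 ± 0.14, 3.49e-13). Cpt2 was at 27.5% in LKO (−1.86 ± 0.15) and 32.9% in KO (−1.61 ± 0.16).

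Slc22a5, the carnitine importer, was at 24.5% of LWT in LKO (−2.03 ± 0.24, limma adjusted p = 5.32e-07) and at 46% of WT in KO (−1.12 ± 0.26, 0.00168). In the KO comparison the lowest WT mouse, at 1.2, lay under the highest KO mouse, at 1.56, and a fit of the 4 WT and 3 KO mice alone gave an adjusted p of 0.13. The 2 lowest mice of that comparison within their groups, at 1.2 and 0.21, were both on slide 1. Crat was at 34.3% in LKO (−1.54 ± 0.35, adjusted p = 0.00401) and 41.2% in KO (−1.28 ± 0.37, 0.01). The KO call of Crat was lost in the fit of those 7 mice alone (0.0929) and without KO vehicle mouse 1 (0.0919), and its size fell to −0.58 after normexp background correction and −0.73 in the authors' value table. Normexp also gave a smaller LKO difference for Crat, −0.87. Without KO vehicle mouse 1 the Slc22a5 difference in KO was −0.74 and still called.

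Crot was lower by smaller amounts, −0.67 ± 0.20 in LKO (limma adjusted p = 0.0461) and −0.91 ± 0.22 in KO (0.00233). The LKO call was lost in 6 of 12 alternative settings, with adjusted p up to 0.191, and without any of 20 of the 34 mice. The KO call was lost in the fit of the 7 mice alone (0.121), with the replicate number as a block (0.236) and without KO vehicle mouse 3 (0.0532). Within slide 1, which holds 1 mouse of each group, KO was above WT by 0.12, and without that slide the difference was −1.38. Kupffer cell markers had a summed level of 6.26 to 8.6 in KO vehicle mice and 6.04 to 6.63 in WT vehicle mice, with 1 of 5 markers called higher. Of 4 endothelial markers 2 were called higher and 1 lower, and of 4 stellate markers 1 was called lower, beside 2 of 6 hepatocyte markers called higher. Of all 16089 genes, 2234 were called higher and 2584 lower in KO against WT on vehicle. The part of these cell types in the KO values was not tested.

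Of the outer-membrane transferases, Cpt1b was at 46.1% of LWT in LKO (−1.12 ± 0.20, limma adjusted p = 0.000367), with no overlap between mice; normexp background correction gave −0.69, also called. In KO it was at 85.4% of WT (−0.23 ± 0.22, 95% interval −0.67 to 0.22, adjusted p = 0.466). Cpt1a was at 83.1% of LWT in LKO (−0.27 ± 0.08, adjusted p = 0.0419) and 96.5% of WT in KO (−0.05 ± 0.09, interval −0.23 to 0.13, adjusted p = 0.697). The LKO call of Cpt1a was lost in 8 of 12 alternative settings, among them the replicate block (0.139), with adjusted p up to 0.227. It was also lost without LKO vehicle mouse 1, 3 or 4 or any LWT vehicle mouse (0.0703 to 0.154).

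**Figure D3:**
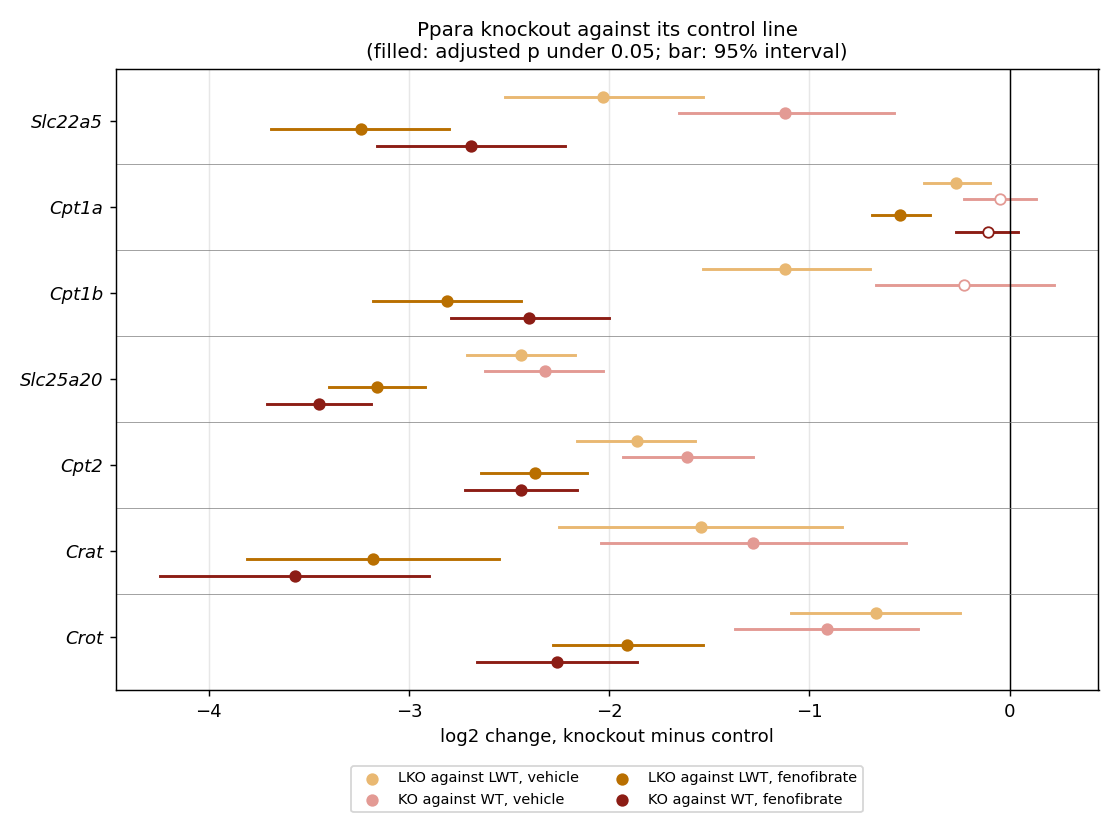
Log2 difference between each knockout and its control line for the 7 genes, on vehicle (light colours) and on fenofibrate (dark colours), with the 95% interval as a bar and filled circles for an adjusted p under 0.05. Slc25a20 lies at −2.44 and −2.32 on vehicle in LKO and KO, and Cpt1a lies closest to 0 in all 4 comparisons.

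The difference between the lines was itself tested for vehicle mice, as the KO change minus the LKO change. It was called for 0 of 7 genes, against 8.28% of all genes (limma, 3573 had an unadjusted p under 0.05). Cpt1b differed by 0.89 ± 0.30 (95% interval 0.28 to 1.5, adjusted p = 0.0605) on its main probe and by 1.18 ± 0.35 on the further probe, which was called in the fit of every probe (limma adjusted p = 0.0399). The main probe was called in 3 of 12 alternative settings and without 1 of 5 mice: KO vehicle 3, LWT fenofibrate 5, LWT vehicle 1, WT fenofibrate 2 or WT vehicle 4 (0.0335 to 0.0492). Slc22a5 differed by 0.91 ± 0.36 (0.18 to 1.64, adjusted p = 0.117), and was called with slide as a block (0.0129), with the replicate block (0.011), without slide 1 (0.0156) and without KO vehicle mouse 1 or WT vehicle mouse 4 (0.0105 and 0.0337). The other 5 differences ran from −0.24 to 0.27. For Cpt1b, then, whether the lines differed depends on the probe and the setting that are read. For Slc22a5 the answer depends on the setting and on the mice left out. Each value also takes in the gap between the control lines, so it is not a difference between the knockouts alone. On vehicle Slc22a5 read 2.09 ± 0.66 in WT, 2.67 ± 0.19 in LWT, 0.97 ± 0.69 in KO and 0.64 ± 0.23 in LKO. Cpt1b read −1.07 ± 0.27, −0.79 ± 0.25, −1.3 ± 0.34 and −1.91 ± 0.17 in the same order.

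On fenofibrate the medians of both knockout comparisons lay further from 0 than on vehicle. LKO mice were below LWT mice for 7 of 7 genes, against 18.1% of all genes, with a median of −2.81, and the mice did not overlap for 7 of 7, against 14.9%. KO mice were below WT mice for 6 of 7 genes, against 21.9%, with a median of −2.44, and the mice did not overlap for 6 of 7, against 18%. Slc22a5 stood at 10.6% of the LWT level in LKO and 15.5% of the WT level in KO. Crat stood at 11% and 8.43% (its KO difference of −3.57 was −2.21 with normexp), Slc25a20 at 11.2% and 9.15%, and Cpt1b at 14.3% and 19%. Cpt2 was at 19.3% and 18.4%, and Crot at 26.7% and 20.8%. Cpt1a was at 68.4% of LWT in LKO (−0.55 ± 0.07, limma adjusted p = 4.64e-07) and 92.5% of WT in KO (−0.11 ± 0.08, 95% interval −0.27 to 0.04, adjusted p = 0.243); the difference between these 2 changes was not tested.

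The control lines were compared with each other because each knockout has its own. On vehicle 1 of 7 genes was lower in WT than in LWT, against 0.472% of all genes. That gene was Cpt1a, at 6.88 ± 0.14 in WT and 7.28 ± 0.02 in LWT (SD, n = 4 each), a difference of −0.40 ± 0.08 (limma adjusted p = 0.00873). The call was lost in 4 of 12 alternative settings, among them the replicate block (0.149), and without WT vehicle mouse 1 (0.0573). The other 6 differences ran from −0.58 for Slc22a5 to −0.29 for Cpt1b, all in the same direction and not called. On fenofibrate 0 of 7 genes were called, against 0.528% of all genes in either direction, and the values ran from −0.25 for Cpt1a to −0.01 for Cpt1b.

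The order of the 8 groups was alike for most members. LWT fenofibrate was the highest group for all 7 genes. WT fenofibrate came next for 6 of them, its mice overlapping with LWT fenofibrate, and LWT vehicle and WT vehicle followed. The exception was Cpt1a, whose second place went to LWT vehicle at 7.28 ± 0.02, with WT fenofibrate at 7.13 ± 0.06 fully below it. Of the 49 pairs of neighbouring groups in these orders, 9 did not overlap. In 5 of the 9 the lower group was LWT vehicle and the higher WT fenofibrate, for Cpt1b, Slc25a20, Slc22a5, Crat and Crot. The order was taken from the same values and such pairs were not counted over all genes, so these counts only describe the members. Among neighbouring pairs of knockout groups 1 did not overlap: for Slc25a20 the highest KO fenofibrate mouse, at 1.29, lay just under the lowest LKO vehicle mouse, at 1.32. For Crot the KO fenofibrate mice, which are no neighbours of the LKO groups in that order, read at most 4.83 and lay under all LKO mice, at 4.87 or above.

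Genes around the shuttle were read from 6 lists of the same pathway and are given as counts. Of 3 carnitine synthesis genes, Aldh9a1, the aldehyde dehydrogenase of that pathway, rose by 0.58 ± 0.13 in WT and 0.47 ± 0.13 in LWT (limma adjusted p = 0.00201 and 0.00927). Bbox1, which makes carnitine in the last step, did not pass the test with the drug in WT (0.05 ± 0.15) or LWT (0.15 ± 0.14) but was lower in LKO vehicle mice by −0.57 ± 0.15 (0.0121) and in KO by −0.96 ± 0.16 (3.05e-05). Aldh9a1 was lower there too, by −1.05 ± 0.13 and −1.11 ± 0.15. Tmlhe, the first enzyme, changed by 0.26 ± 0.18 in WT and rose by 0.47 ± 0.17 in LWT (adjusted p = 0.336 and 0.0489).

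Of 4 genes that set malonyl-CoA, the inhibitor of CPT1, Acacb, the acetyl-CoA carboxylase of the mitochondrial surface, rose by 1.39 ± 0.17 in WT and 0.97 ± 0.16 in LWT (limma adjusted p = 5.98e-07 and 6.41e-05). Mlycd, malonyl-CoA decarboxylase, which removes that inhibitor, rose as well, by 0.69 ± 0.09 and 0.50 ± 0.09 (1.68e-06 and 8.37e-05). Acly, which supplies cytosolic acetyl-CoA, fell in WT by 1.09 on the log2 scale (SE 0.28, adjusted p = 0.00491), and its change in LWT was −0.72 ± 0.26 (0.057). Acaca, the cytosolic carboxylase, was not called with the drug in either line (0.08 ± 0.28 and 0.61 ± 0.26). In KO vehicle mice Acaca was lower by −1.45 ± 0.30 (0.000466) and Acacb higher by 1.01 ± 0.19 (0.00014), while in LKO they differed by −0.06 ± 0.28 and 0.37 ± 0.17 (0.95 and 0.272). The Acaca change from the control line differed between the knockout lines by −1.39 ± 0.41 (0.0297). That value takes in any gap between the control lines. Differences of WT from LWT among the 4 genes ran from −0.31 to 0.85 on vehicle, none of them called.

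Of 5 long-chain acyl-CoA synthetases, which make the substrate of CPT1, 4 could be tested and 2 rose in WT, Acsl1 by 1.09 ± 0.21 and Acsl5 by 0.92 ± 0.16 (limma adjusted p = 0.000398 and 5.85e-05). In LWT 1 of 4 rose, Acsl5 by 0.69 ± 0.15 (0.00127). Of 14 matrix beta-oxidation genes, downstream of Cpt2, 12 rose in WT with a list median of 0.67 and 12 in LWT with a median of 0.58, against 9.99% and 9.94% of all genes. In WT they were led by Eci1, an enoyl-CoA isomerase (1.14 ± 0.12, 5.76e-08), and Acadm, the medium-chain acyl-CoA dehydrogenase (1.13 ± 0.13, 1.11e-07). On vehicle 13 of 14 were lower in LKO and 12 of 14 in KO, against 4.27% and 16.1% of all genes. Of 8 peroxisomal genes 7 rose in WT and 7 in LWT, led by Ehhadh, the bifunctional enzyme, at 3.59 ± 0.30 and 3.05 ± 0.29 (6.69e-10 and 6.84e-09). None of these 6 lists had a called gene with fenofibrate in LKO or KO, where 927 and 1903 of all genes had an unadjusted p under 0.05 in limma.

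**Figure D4:**
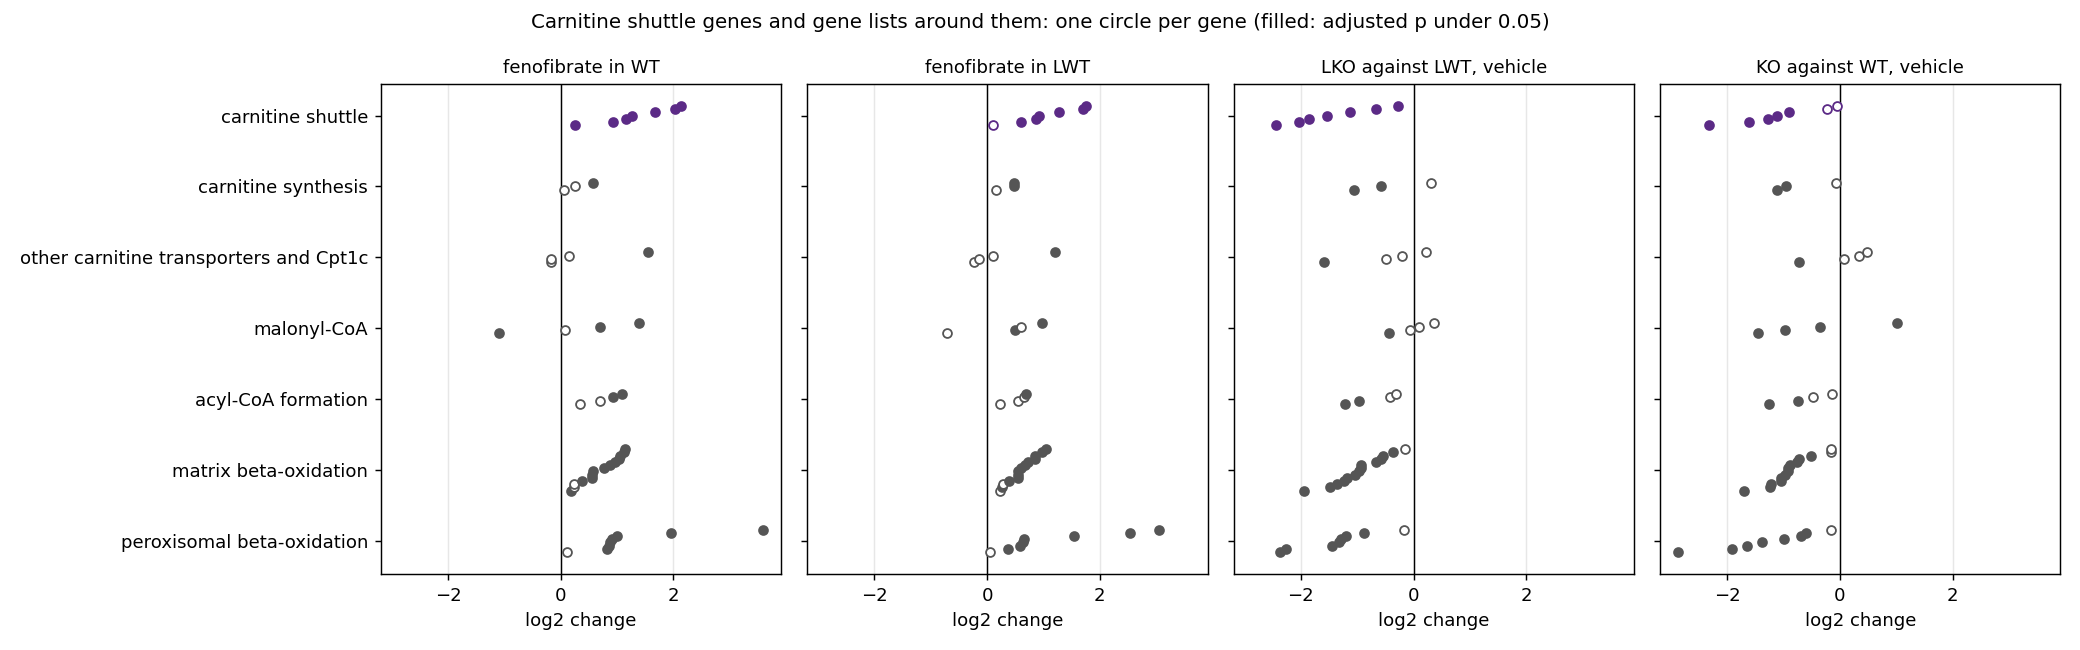
Log2 change of each tested gene of the carnitine shuttle and of 6 lists around it (rows) in 4 comparisons (panels, 1 shared axis), with filled circles for an adjusted p under 0.05. With fenofibrate 12 of 14 matrix and 7 of 8 peroxisomal genes are filled in both control lines, and the shuttle reaches from 0.25 to 2.14 in WT.

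Chkb and Slc22a21 were the only genes examined for lying near a shuttle gene, and both rose with the drug in the control lines. Chkb, a choline kinase next to Cpt1b with no RefSeq gene between them, rose by 1.16 ± 0.12 in WT and 0.92 ± 0.12 in LWT (limma adjusted p = 5.86e-08 and 1.19e-06). In LKO and KO its drug change was −0.01 ± 0.12 and 0.08 ± 0.13, and on vehicle it was lower by −0.69 ± 0.12 in LKO and −0.42 ± 0.13 in KO (0.000336 and 0.0174). Chkb levels ran from 3.62 to 4.34 in WT vehicle and 4.87 to 5.34 in WT fenofibrate mice. Slc22a21, a carnitine transporter gene with 1 RefSeq gene between it and Slc22a5, rose by 1.55 ± 0.20 in WT and 1.21 ± 0.19 in LWT (1.74e-06 and 3.55e-05) and was lower by −1.59 ± 0.20 in LKO and −0.72 ± 0.22 in KO on vehicle (2.11e-06 and 0.0137). The longest run of bases that the Slc22a5 and Slc22a21 probes share is 7 of 60. Neither probe was compared with the transcript of the other gene, so binding across the 2 genes was not tested. The other carnitine transporters and the brain form of CPT1 were not called in any of these comparisons: with the drug in WT Slc22a4 changed by −0.18 ± 0.19, Slc16a9 by 0.14 ± 0.21 and Cpt1c by −0.17 ± 0.29.

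**Figure D5:**
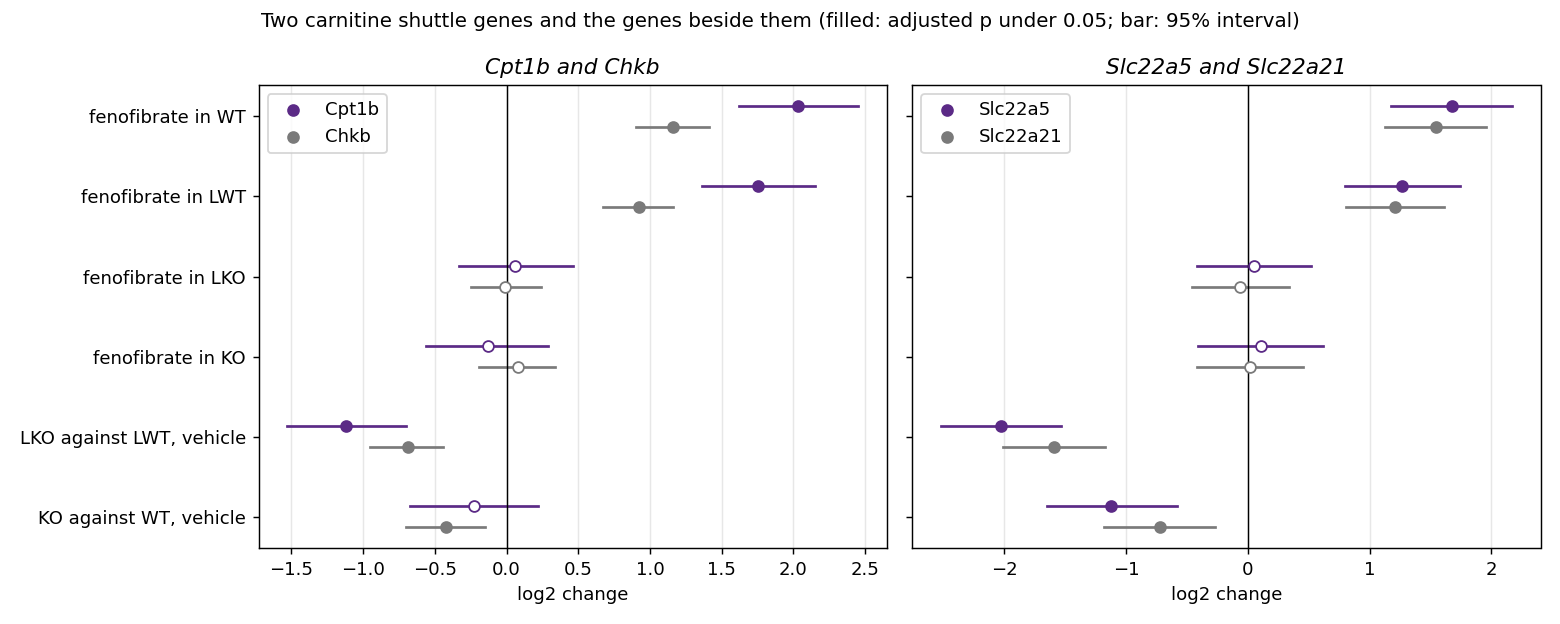
Log2 change of Cpt1b and its neighbour Chkb (left) and of Slc22a5 and the nearby Slc22a21 (right) in 6 comparisons, with the 95% interval as a bar and filled circles for an adjusted p under 0.05. Both pairs lie above 0 with the drug in WT and LWT and near 0 in LKO and KO, and Cpt1b against Chkb reads −0.23 and −0.42 in KO on vehicle.

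Across the 34 arrays the gene most like Slc25a20 was Etfdh, the electron transfer flavoprotein dehydrogenase (Pearson r = 0.997), which also led for Cpt2 (0.992). Slc22a21 led for Slc22a5 (0.994), Pex11a, a peroxisome division gene, for Crat (0.979), Aqp3, a glycerol channel, for Cpt1b (0.974), and Sec14l2 for Crot (0.970). For Cpt1a the highest value, that of 1810055G02Rik, was 0.850. Among the members r was highest between Slc25a20 and Cpt2 (0.992), and Cpt1a had 0.653 to 0.738 with the other 6. With group means removed, r was highest between Slc25a20 and Crat (0.804, against 0.737 for Slc25a20 and Cpt2), and Crot had −0.189 to 0.336 with the other 6. These are descriptions over arrays that share genotype and treatment, with no test.

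Promoter sequence from RefSeq (GRCm38.p6) could be matched for 5 of the 7 genes, Cpt1a, Cpt2, Crot, Slc22a5 and Slc25a20, and 3 are printed because across all arrays, group differences included, r was highest between Slc25a20 and Cpt2 and lowest for Cpt1a. The 250 bases before the start are given 5′ to 3′ on the strand of the gene. The direct repeat that PPARA and RXR bind, known as DR1, was searched on both strands as AGGTCA, any base, then AGGTCA again, and it was in none of the 5 stretches, against 0.0335% of 32851 promoters of that length. A looser form, in which each unit reads AGGNCA, was in none either, against 0.338%, and the first form with up to 2 mismatches in none, against 3.24%. A single unit, AGGTCA, which lies within the first form, was found once among the 5, on the minus strand of Cpt1a with its first base 94 bases before the start, against 14% of all promoters. It is in capitals below. A match is a description of letters, and these windows hold none of the sequence further away.
Slc25a20 promoter, chr9:108661886-108662135 (GRCm38.p6, plus strand): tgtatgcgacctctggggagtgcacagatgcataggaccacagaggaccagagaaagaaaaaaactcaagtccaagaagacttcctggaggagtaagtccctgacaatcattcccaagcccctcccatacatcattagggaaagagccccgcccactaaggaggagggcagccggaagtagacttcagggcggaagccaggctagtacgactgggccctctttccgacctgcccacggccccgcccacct
Cpt2 promoter, chr4:107923590-107923839 (GRCm38.p6, minus strand): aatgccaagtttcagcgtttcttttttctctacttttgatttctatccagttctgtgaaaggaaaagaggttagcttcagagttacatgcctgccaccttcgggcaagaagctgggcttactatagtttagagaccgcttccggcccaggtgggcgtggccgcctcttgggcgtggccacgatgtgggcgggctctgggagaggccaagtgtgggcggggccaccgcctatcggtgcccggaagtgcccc
Cpt1a promoter, chr19:3323051-3323300 (GRCm38.p6, plus strand): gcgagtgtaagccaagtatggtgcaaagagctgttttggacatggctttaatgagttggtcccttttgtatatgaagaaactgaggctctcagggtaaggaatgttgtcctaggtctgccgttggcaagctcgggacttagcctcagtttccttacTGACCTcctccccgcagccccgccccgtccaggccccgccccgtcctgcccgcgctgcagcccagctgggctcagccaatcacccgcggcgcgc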

How the data were processed

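Liver RNA of 34 mice was measured on 34 arrays over 5 slides. The deposited scanner files hold spot intensities on a linear scale, with probes placed on mm9; per the file headers, the scanner software was Agilent Feature Extraction, version 10.10.1.1. The authors' deposited value table is in log2 units, with a median of 7.63 in every column; limma is also named in the submitters' processing notes. For the results here, control spots were dropped, flagged spots set to missing (89 missing values, none in a member), spots of a probe averaged, and log2 values reduced by the array's 75th percentile. A probe entered if 1 or more groups had it well above background on all their arrays, and the brightest probe stood for a gene. Symbols were updated through RefSeq. limma 3.58.1 (R 4.3.3) fitted all 8 groups without covariates; p-values are two-sided. The 34 arrays limit the precision. The code was tested on simulated data.

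Replicate numbers are in the labels. Deviations of same-numbered mice correlated over 0.1 in every pair for the 3 vehicle comparisons LKO with LWT (0.118 to 0.290), KO with WT (0.123 to 0.403) and WT with LWT (0.104 to 0.234), so those numbers were read as pairs, a reading from the data alone. Some of these mice also shared a slide, such as LKO and LWT mouse 1 on slide 2, and others did not. Where they did, number and slide cannot be told apart. The main fit left this pairing out, and it enters only through the replicate block among the alternatives. Alternatives were other background correction, scaling and filters, the authors' table, every probe, slide and replicate blocks, smaller fits, and leaving out mice. Named genes were the 7 members, the genes of the short lists, at most 2 called genes of the longer lists per comparison, and for each member the genes of highest correlation. Members and lists were chosen with earlier results of these data known.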

Additional observations from a re-analysis of the deposited data

Results flagged for a closer look

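In 49 sets of 4 or 5 mice (7 genes by the 7 groups of that size), 2 held a mouse far from the others, where chance flags about 1 in 20. In LKO fenofibrate mouse 1 Cpt1b read −2.21, and the nearest mouse −1.78. In LKO vehicle mouse 1 Slc22a5 read 0.29, and the nearest mouse 0.72. The drug change differed between genotypes by the interaction test for 5 genes in LWT against LKO, namely Cpt1b (1.69), Crat (1.64), Crot (1.24), Slc22a5 (1.22) and Slc25a20 (0.72). It differed for 6 genes in WT against KO, namely Crat (2.29), Cpt1b (2.17), Slc22a5 (1.57), Crot (1.35), Slc25a20 (1.13) and Cpt2 (0.83). All 11 differences were positive, a larger rise in the control line.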

How the results depend on the processing

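Every called change of a member kept its direction in all 12 alternative settings, including that without slide 1, chosen after seeing the data. Settings that altered only the filter, the probes fitted or the groups in the fit used the same member values. Their direction was therefore fixed in advance. Within slides that hold both groups, 73 of 74 called differences kept their sign, the exception being Crot in KO against WT on vehicle on slide 1, at 0.12; the cause was not tested. Where the 2 groups did not overlap, the sign within a slide was fixed in advance. Only Crat, Crot and Slc22a5 in KO against WT on vehicle could have changed sign, so the count says little about the slides. Counts of called members moved by over 1.5 times as follows. KO against WT on vehicle had 2 in place of 5 with only the groups compared, a fit of fewer samples. WT against LWT on vehicle had 0 in place of 1 with the array median, the authors' table, only the groups compared and the replicate block, and 0 to 2 on leaving out a mouse. The larger change in WT than in KO had 1 in place of 6 with the replicate block. There the block joined vehicle and fenofibrate mice of the same number within each line. Deviations of such mice correlated from −0.106 to 0.0869 in WT and from −0.0889 to 0.116 in KO, so they were not read as pairs. The KO against LKO difference on vehicle had 1 in place of 0 with quantile scaling, the array median, the replicate block and without slide 1, 2 with slide as a block, and 0 to 2 on leaving out a mouse. The replicate block gave 5 called members for fenofibrate in WT, where Cpt1a and Cpt2 lost their calls, and 4 for KO against WT on vehicle. Over all genes, KO against WT on vehicle had 4818 called genes, 2051 with only the groups compared, 1149 with the replicate block and 7783 of 31053 with every probe fitted. With the replicate block, fenofibrate in WT had 1906 in place of 3423, fenofibrate in LWT 1806 in place of 2857, and the larger change in WT than in KO 230 in place of 1762 (1029 with only the groups compared). WT against LWT had 147 on vehicle and 38 to 96 with the 4 settings named for it above, and 85 on fenofibrate, 143 with slide as a block, 139 without slide 1 and 0 with the replicate block. With every probe fitted, of 31053 probes 9356 were called for LKO against LWT on fenofibrate, in place of 5849 genes, and 11851 for KO against WT on fenofibrate, in place of 6935. Fenofibrate against vehicle in KO had 2, and 0 to 18 in the alternatives. All member probes were well above background on every array, yet normexp background correction moved 4 called differences of Crat and Cpt1b by over 1.5 times, so their sizes depend on the background treatment. Groups of 3 to 5 mice limit the precision of every value.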
